A study of Mus musculus with 36 samples.

Results

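The genes described here belong to the complement, coagulation, fibrinolysis and kinin systems. A list of 38 gene symbols was looked up in the deposited count table of 15730 genes, and 36 were found: 11 of complement, 17 of coagulation, 5 of fibrinolysis and 3 of the kinin system. Cfb and F2 are not analysed here. RNA came from kidney cortex of male ApoE−/− mice on a C57BL/6 background, so every group, controls included, lacks functional apolipoprotein E and is prone to atherosclerosis. The nondiabetic and the diabetic mice were each given vehicle (0.1% ethanol), lipoxin A4 (LXA4, 5 µg/kg) or benzo-LXA4 (1.7 µg/kg), with 6 libraries in each of the 6 groups and 36 in all. Lipoxin A4 is a lipid mediator made from arachidonic acid that is known for limiting inflammation, and benzo-LXA4 is a synthetic analog with a benzene ring built into its chain of double bonds. To make mice diabetic, streptozotocin, which destroys insulin-producing cells, was injected at 55 mg/kg on each of 5 days, from an age of 6 weeks. What the nondiabetic mice received in its place is not stated. Compounds were injected intraperitoneally 2 times a week, in the described design between weeks 10 and 16. The labels number the libraries of a group 1 to 6 and do not tie each number to its own animal, so the p-values speak only of the spread between libraries, part of which may be technical.

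Complement is a cascade of plasma proteases and scaffolds that converges on the cleavage of C3, with membrane and soluble regulators that protect host cells and receptors that read the released fragments. Coagulation ends in thrombin, which turns fibrinogen into fibrin and signals through protease-activated receptors, while plasmin, made from plasminogen by urokinase or tissue plasminogen activator, dissolves the clot. Most of the soluble proteins of these systems are made in the liver, but kidney tubules and resident leukocytes also transcribe several of them, and tissue kallikrein and urokinase are well known products of the renal tubule.

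Library totals ran from 8896193 to 43305005 counts. In 2 libraries, nondiabetic vehicle replicate 3 and diabetic LXA4 replicate 6, structural RNA (ribosomal and small structural RNA genes) took 17.7% and 56.9% of the counts, against at most 6.81% in the other 34. Diabetic LXA4 replicate 6 was also the shallowest library, and of all 36 libraries it was the lowest in 16 of the 36 genes and the highest in 4 (F8, Thbd, Serpine2 and Plau). Calls of members that changed when both were left out are given beside the comparison they belong to. Apoe was low in every library, from 1.62 to 3.42 CPM (counts as a share of the scaled library size), and no library with an intact gene is at hand to compare it with. All 12 markers listed for the proximal tubule, the main structure of cortex, were measured. Values in CPM are scaled by the trimmed mean of M-values, and log2 differences come from 1 model of all genes and groups.

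Per length of exon, 2 kinin and 2 fibrinolysis genes led. Klk1, tissue kallikrein, which releases kinins, averaged 447 CPM per kilobase over the 36 libraries, and Plau, the urokinase plasminogen activator, averaged 158 CPM per kilobase. Next came Kng2, a kininogen and so a substrate of kallikrein, at 92.05 CPM per kilobase, and Serpinf2, alpha-2-antiplasmin, the main inhibitor of plasmin, at 75.8. A gap followed, with F2r, the thrombin receptor PAR1, at 11.7 CPM per kilobase. Of the others, 21 lay between 1 and 10 CPM per kilobase and 10 lay below 1, down to F13a1, the transglutaminase subunit of factor XIII, at 0.108. The 3 fibrinogen chains, which form 1 hexameric protein, were unequal on this scale, with Fga at 4.32, Fgg at 2.24 and Fgb at 0.215 CPM per kilobase. Averages were under 1 CPM in 8 members (C2, C5ar1, F10, F13a1, Fgb, Kng1, Plg and Procr), and in each of these the library with the fewest reads held 0 to 3 counts.

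**Figure D1:**
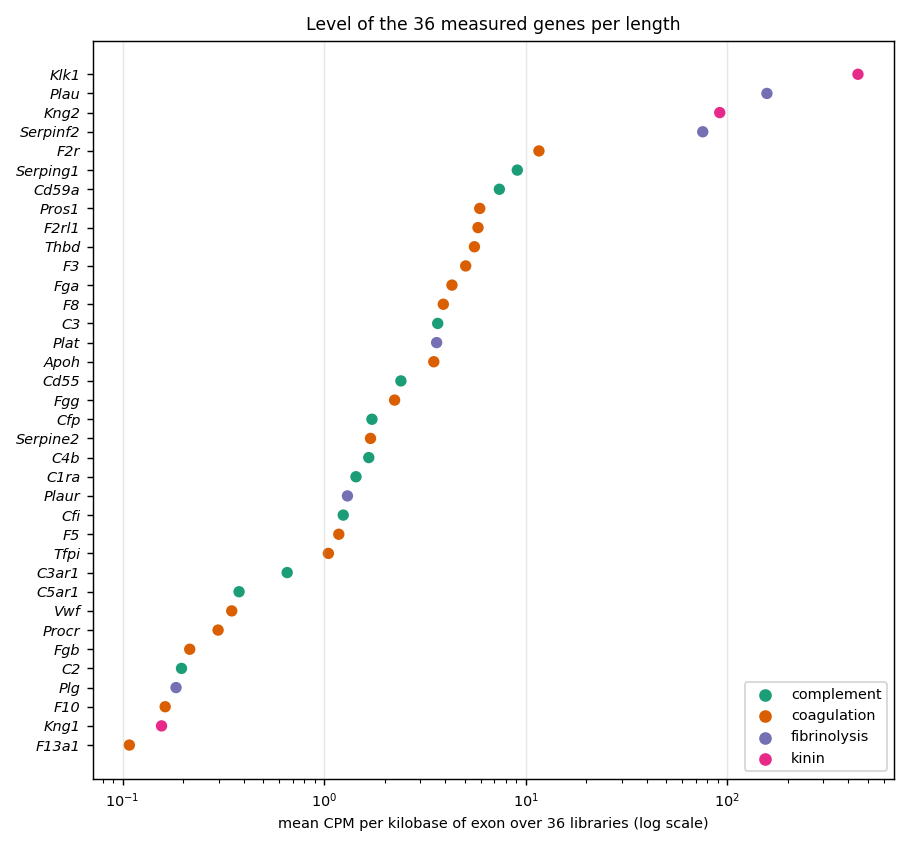
Mean level of each of the 36 genes over all 36 libraries, in CPM per kilobase of exon on a log axis, 1 point per gene, coloured by system. Klk1 (447), Plau (158), Kng2 (92.05) and Serpinf2 (75.8) stand well to the right of the other genes, of which F2r is the next at 11.7.

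Some of these levels are uncertain because other annotated genes hold the same sequence. Of all 50-base stretches of the annotated transcripts, C1ra shared 50.8% with other genes (48.0% with C1rb), C2 shared 38.7% with the gene model Gm20547, C4b shared 34.6% with C4a, and Klk1 shared 24.0% with other kallikrein genes (15.9% with Klk1b5). Kng1 and Kng2 shared 17.2% and 19.4% of theirs with each other, Cd55 shared 7.998% with Cd55b, and Cd59a shared 3.87% with Cd59b. How reads with several matches were counted is not given in the sources used here. Apoh overlaps Prkca on the opposite strand, as F5 does Gm16548, F8 does Fundc2, Plg does Slc22a3, C2 does Zbtb12 and Klk1 does Gm10109, and the strand setting of the counting is not given either. On the same strand, C2 overlaps Gm20547, F5 Gm16588, Apoh Gm11656, F8 Gm8522, Kng2 Gm6493 and C3 Mir6978, which no strand setting would separate. The stretches that C2 and Gm20547 share thus need not be a copy elsewhere in the genome.

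With vehicle alone, diabetes moved 7 of the 36 genes past an adjusted p of 0.05, against 5.6% of all 15726 genes tested. The 4 that rose were Serpine2, C3ar1, F2r and Pros1, and the 3 that fell were F5, Apoh and Serpinf2. Higher calls made up 3.44% of all genes and lower calls 2.16%. The largest fall among the 36 was in F5, and the 4 rises lay between 0.58 and 0.79 on the log2 scale. Over the 36 genes the median log2 difference was 0.14, with 24 above 0, while the median over all genes was -0.01. Libraries of the diabetic and nondiabetic groups did not overlap in 1 member, Pros1, against 2.58% of all genes. In bulk tissue, a lower count can mean fewer cells of a type or less RNA per cell, and these cannot be told apart. When only the vehicle groups were fitted, the calls of C3ar1, F5, Serpine2 and Serpinf2 missed the threshold at unchanged size (adjusted p of 0.0744, 0.0852, 0.0756 and 0.0919). Without diabetic vehicle replicate 5, 4 of the 36 genes were called.

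F5, the gene of coagulation factor V, the cofactor with which activated factor X cleaves prothrombin (chromosome 1, 164151838 to 164220277, GRCm38), ranged in nondiabetic vehicle libraries from 4.49 to 23.7 CPM with a median of 13.2. In diabetic vehicle libraries it ranged from 2.58 to 8.89 CPM with a median of 3.99. All 6 diabetic libraries lay below the mean of the controls, but 2 controls, replicates 3 and 4, fell within the diabetic range. The log2 difference was -1.50 ± 0.36 (SE, n = 6 against 6), with an adjusted p of 0.0101 in edgeR's quasi-likelihood test.

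Serpinf2 (chromosome 11, 75431732 to 75439591) had the highest level per length of the 7 genes that changed. Its nondiabetic vehicle libraries held 160 to 252 CPM with a median of 234. The diabetic ones held 62.2 to 176 CPM with a median of 131. The groups overlapped, with 3 of the 6 diabetic libraries below every control. The fall was -0.82 ± 0.19 on the log2 scale (SE, n = 6 against 6), with an adjusted p of 0.00843.

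Apoh encodes beta-2-glycoprotein I, a plasma protein that binds anionic phospholipids (chromosome 11, 108343354 to 108414396). It ranged from 4.89 to 10.5 CPM, median 8.96, in nondiabetic vehicle libraries. In diabetic vehicle libraries it ranged from 1.54 to 5.93 CPM, median 3.36. Of the diabetic libraries 5 lay below every control, and only the highest, replicate 2, reached above the lowest control. The fall was -1.31 ± 0.34 (SE, n = 6 against 6; adjusted p = 0.0178), and it missed the threshold when diabetic vehicle replicate 3, 4 or 5 was left out (adjusted p of 0.0553, 0.0578 and 0.0637).

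The rises included 2 genes that hold back coagulation. Serpine2, or protease nexin 1, a serpin that inhibits thrombin, urokinase and plasmin (chromosome 1, 79794197 to 79861180), ranged from 6.41 to 16.5 CPM, median 10.4, in nondiabetic vehicle libraries. In diabetic vehicle libraries it ranged from 14.45 to 22.2 CPM, median 17.5. Only the highest control, replicate 4, reached into the diabetic range, and 4 diabetic libraries lay above it. This was a log2 difference of 0.73 ± 0.15 (SE, n = 6 against 6; adjusted p = 0.00298). Pros1, protein S, the cofactor of activated protein C (chromosome 16, 62854307 to 62929346), ranged from 16.1 to 22.5 CPM, median 19.8, in controls. It ranged from 23.6 to 37.9 CPM, median 27.95, in diabetic libraries. Every diabetic library thus lay above every control. The log2 difference was 0.58 ± 0.155 (SE; adjusted p = 0.0213), which passed the threshold no longer without nondiabetic vehicle replicate 3 or diabetic vehicle replicate 3 or 5 (adjusted p of 0.0582, 0.0651 and 0.0691).

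The other rises were in receptors. F2r, which thrombin cleaves and so activates (chromosome 13, 95601803 to 95618487), ranged from 27.3 to 41.8 CPM, median 30.5, in nondiabetic vehicle libraries. It ranged from 37.0 to 73.6 CPM, median 49.4, in diabetic vehicle libraries. The groups overlapped only through the highest control, replicate 5, since 4 diabetic libraries lay above it. The rise was 0.75 on the log2 scale ± 0.19 (SE, n = 6 against 6; adjusted p = 0.0173), lost without diabetic vehicle replicate 4 or 5 (adjusted p of 0.0588 and 0.0685). C3ar1, the receptor of the anaphylatoxin C3a (chromosome 6, 122847138 to 122856161), ranged from 1.60 to 2.87 CPM, median 2.41, in controls. It ranged from 2.69 to 6.12 CPM, median 3.62, in diabetic libraries. Of the diabetic libraries 5 lay above every control. On the log2 scale the rise was 0.79 ± 0.20 (SE; adjusted p = 0.0140). F2rl1, the related receptor PAR2, and C5ar1, the receptor of C5a, had log2 differences of 0.08 and 0.23 that missed the threshold.

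**Figure D2:**
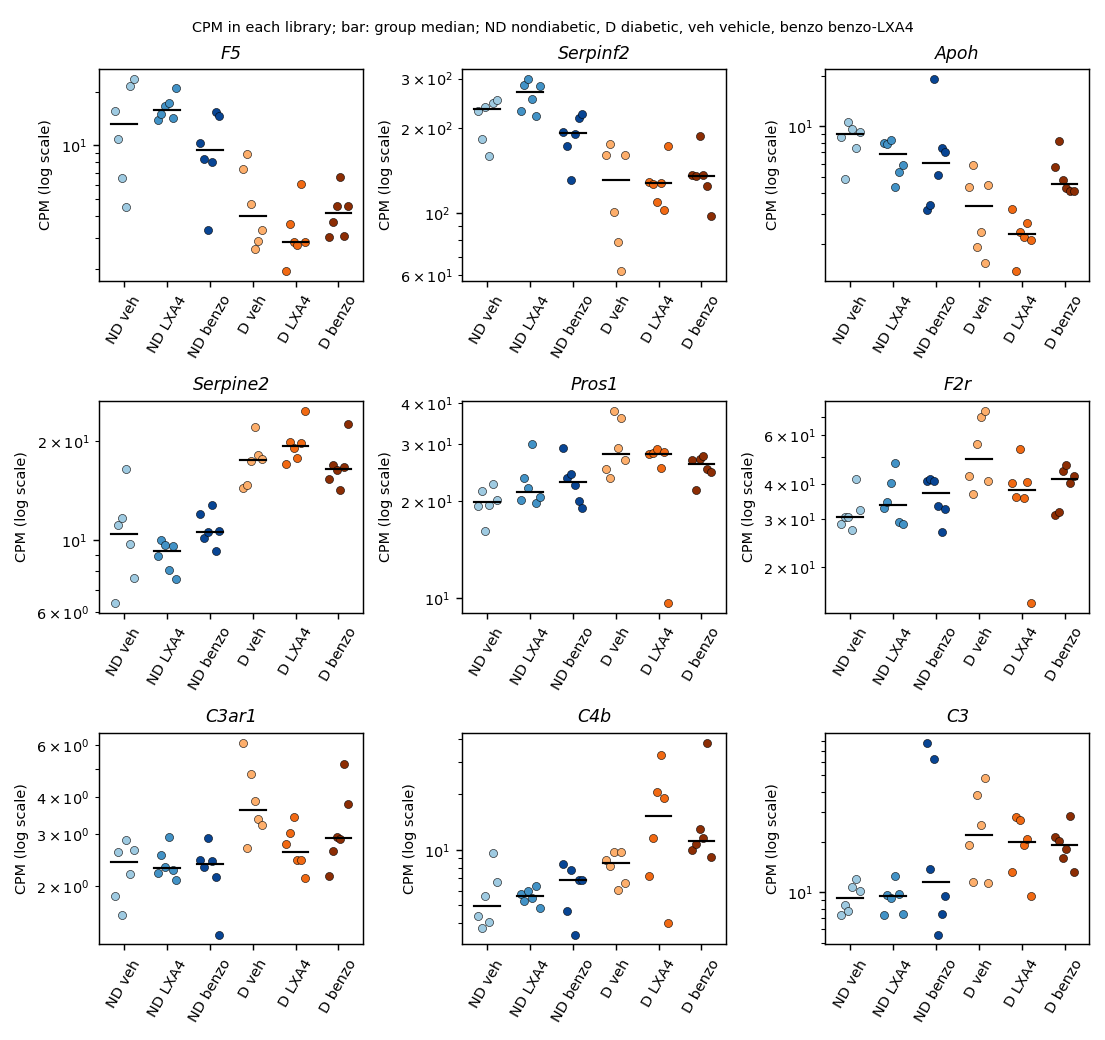
CPM of 9 genes in every library, on log axes, 1 point per library and a bar at each group's median, for the nondiabetic (ND) and diabetic (D) groups given vehicle (veh), LXA4 or benzo-LXA4 (benzo). F5, Serpinf2 and Apoh have lower medians, and Serpine2 higher ones, in the diabetic groups, while C3 has 2 high libraries in the nondiabetic benzo-LXA4 group (78.2 and 62.4 CPM).

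Of these genes 4 are shown with the bases before their start, because they include the falls and rises with the smallest adjusted p and the gene whose groups did not overlap. The sequences are RefSeq's for GRCm38.p6, 5′ to 3′ on the gene's own strand, and run up to 250 bases before the RefSeq start, with bases inside any annotated exon left out. Capitals mark a match to a simplified NF-kB motif, GGGA followed after any 4 bases by CC.
F5 (chr1:164151585-164151834, plus strand): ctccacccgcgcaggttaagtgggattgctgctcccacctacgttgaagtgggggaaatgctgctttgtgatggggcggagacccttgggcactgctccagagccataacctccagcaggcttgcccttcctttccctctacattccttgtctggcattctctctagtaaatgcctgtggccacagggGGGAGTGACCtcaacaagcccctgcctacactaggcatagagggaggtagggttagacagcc
Pros1 (chr16:62854057-62854306, plus strand): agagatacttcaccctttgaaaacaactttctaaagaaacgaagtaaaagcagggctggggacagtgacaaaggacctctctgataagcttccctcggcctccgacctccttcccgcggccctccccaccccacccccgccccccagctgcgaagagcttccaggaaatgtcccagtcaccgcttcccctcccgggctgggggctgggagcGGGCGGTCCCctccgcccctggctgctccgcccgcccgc
Serpine2 (chr1:79858697-79858915, minus strand): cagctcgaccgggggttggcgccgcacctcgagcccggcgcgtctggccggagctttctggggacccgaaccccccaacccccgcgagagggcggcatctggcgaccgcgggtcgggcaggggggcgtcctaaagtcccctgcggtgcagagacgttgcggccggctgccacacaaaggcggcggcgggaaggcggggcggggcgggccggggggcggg
Serpinf2 (chr11:75439592-75439751, minus strand): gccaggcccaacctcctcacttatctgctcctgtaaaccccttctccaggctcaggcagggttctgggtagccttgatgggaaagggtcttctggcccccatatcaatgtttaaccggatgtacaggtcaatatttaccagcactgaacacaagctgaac
In all, 3 motifs were searched on both strands of the window of 250 bases before the start. For 25 of the 36 members that window was in the RefSeq table. A member counts once below if any of its promoters matched, while the share over all promoters counts each promoter. A gene may have several promoters there, so these figures are not like for like. The NF-kB motif was found in 10 of these 25 and in 17.6% of all 32851 promoters, in F5 at 62 to 53 bases upstream and, on the opposite strand, in Pros1 at 39 to 30 bases upstream. GCGNGGGCG, the EGR1 motif, was found in 2 of 25 members, Plaur and Serpine2, and in 4.70% of all promoters. In Serpine2 it lay 17 to 9 bases upstream, among the 31 exon bases left out of the line above. GTTAAT, part of the HNF1 motif, was found in 4 of 25 members, C1ra, Cfp, Fga and Fgb, and in 6.43% of all promoters. None of the 3 was found in the window of Serpinf2, whose line above is 160 bases long. A match is a run of letters, not a shown binding site. The RefSeq start of Serpine2 lies 2515 bases inside the GENCODE one.

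Among the complement genes not past the threshold under vehicle, C3, the central protein of the cascade (chromosome 17, 57203970 to 57228136), had the largest difference. It ranged from 7.30 to 12 CPM, median 9.30, in nondiabetic vehicle libraries. It ranged from 11.4 to 48.5 CPM, median 22.1, in diabetic vehicle libraries. All 6 diabetic libraries lay above the mean of the controls and 4 above every control. The spread within the diabetic group was wide, and the log2 difference of 1.44 ± 0.46 (SE, n = 6 against 6) had an adjusted p of 0.0582. Serping1, the inhibitor of the C1 proteases, ranged from 12.8 to 21.7 CPM, median 16.5, in nondiabetic and from 16.4 to 36.8, median 26.3, in diabetic vehicle libraries (difference 0.63, adjusted p = 0.0809), and it passed without the libraries rich in structural RNA (0.61, adjusted p = 0.0498). Cfi, factor I, which inactivates C3b, ranged from 0.915 to 2.61 CPM and from 2.12 to 4.18 (difference 0.55, adjusted p = 0.338). C4b, the scaffold of the classical C3 convertase, ranged from 3.78 to 9.58 CPM and from 6.03 to 9.76 (difference 0.52, adjusted p = 0.405). In all 3 genes the groups overlapped, most in C4b, where 2 diabetic libraries lay above every control.

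The other complement genes had smaller differences. C1ra, a protease of the C1 complex, ranged from 2.96 to 5.34 CPM, median 3.33, and from 3.88 to 5.85, median 4.58 (difference 0.35, adjusted p = 0.233). C2, the protease of the classical convertase, ranged from 0.618 to 0.880 CPM and from 0.577 to 0.895 (difference -0.12). Neither pair of ranges was apart. Cfp, properdin, which stabilises the alternative C3 convertase, differed by 0.27. The membrane regulators Cd55, which dissociates convertases, and Cd59a, which blocks the membrane attack complex, differed by -0.13 and 0.09. Cd55 ranged from 10.4 to 14.4 CPM in controls and from 7.71 to 14.7 in diabetic libraries.

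In coagulation and fibrinolysis, the genes that did not pass the threshold under vehicle spanned log2 differences from -0.28 for Plau to 1.02 for Procr. Procr, the endothelial receptor of protein C, had 5 of 6 diabetic libraries above every control but held only 0.220 to 0.573 CPM in controls and 0.448 to 1.199 in diabetic libraries (adjusted p = 0.0786). The clotting trigger F3, tissue factor, differed by -0.04, as did F10, factor X, whose active form makes thrombin. F8, factor VIII, differed by 0.24, Vwf, its carrier, by 0.01 and F13a1 by -0.02. The protease inhibitor Tfpi, which blocks tissue factor, differed by -0.25, and Thbd, thrombomodulin, which turns thrombin to activating protein C, by 0.09. Plg, plasminogen, with medians of 0.377 and 0.646 CPM, differed by 0.44, Plat, tissue plasminogen activator, by -0.06 and Plaur, the urokinase receptor, by 0.18, or by 0.34 (adjusted p = 0.324) without the libraries rich in structural RNA. None of the 3 kinin genes passed, with differences of 0.11 in both Kng1 and Kng2 and -0.24 in Klk1, which ranged from 389 to 664 CPM in nondiabetic and from 310.0 to 517 CPM in diabetic vehicle libraries.

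The fibrinogen chains, whose products make the fibrin mesh, overlapped between the vehicle groups. Fga ranged from 8.30 to 20.2 CPM, median 10.7, in nondiabetic and from 9.41 to 22.3, median 14.0, in diabetic libraries. Fgb ranged from 0.229 to 0.823 CPM and from 0.336 to 2.27, and Fgg from 2.93 to 5.59 CPM and from 1.87 to 8.45. The log2 differences were 0.33 in Fga, 1.01 in Fgb and 0.25 in Fgg, with adjusted p-values of 0.581, 0.359 and 0.810.

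Urokinase was abundant and variable. Plau ranged from 347 to 749 CPM, median 428, in nondiabetic vehicle libraries and from 317 to 469, median 355, in diabetic vehicle libraries. These ranges overlapped widely, with the 749 CPM in nondiabetic vehicle replicate 3, a library rich in structural RNA (next 458 CPM). Among LXA4-treated diabetic libraries Plau ran from 139.5 to 1204 CPM, median 273, with the extreme of 1204 in replicate 6, the other such library. Nondiabetic medians were 382.5 CPM with LXA4 and 368 with benzo-LXA4, against diabetic medians of 273 and 245. Over all arms, 15 of 18 diabetic libraries lay below the nondiabetic median (403 CPM, diabetic median 286).

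**Figure D3:**
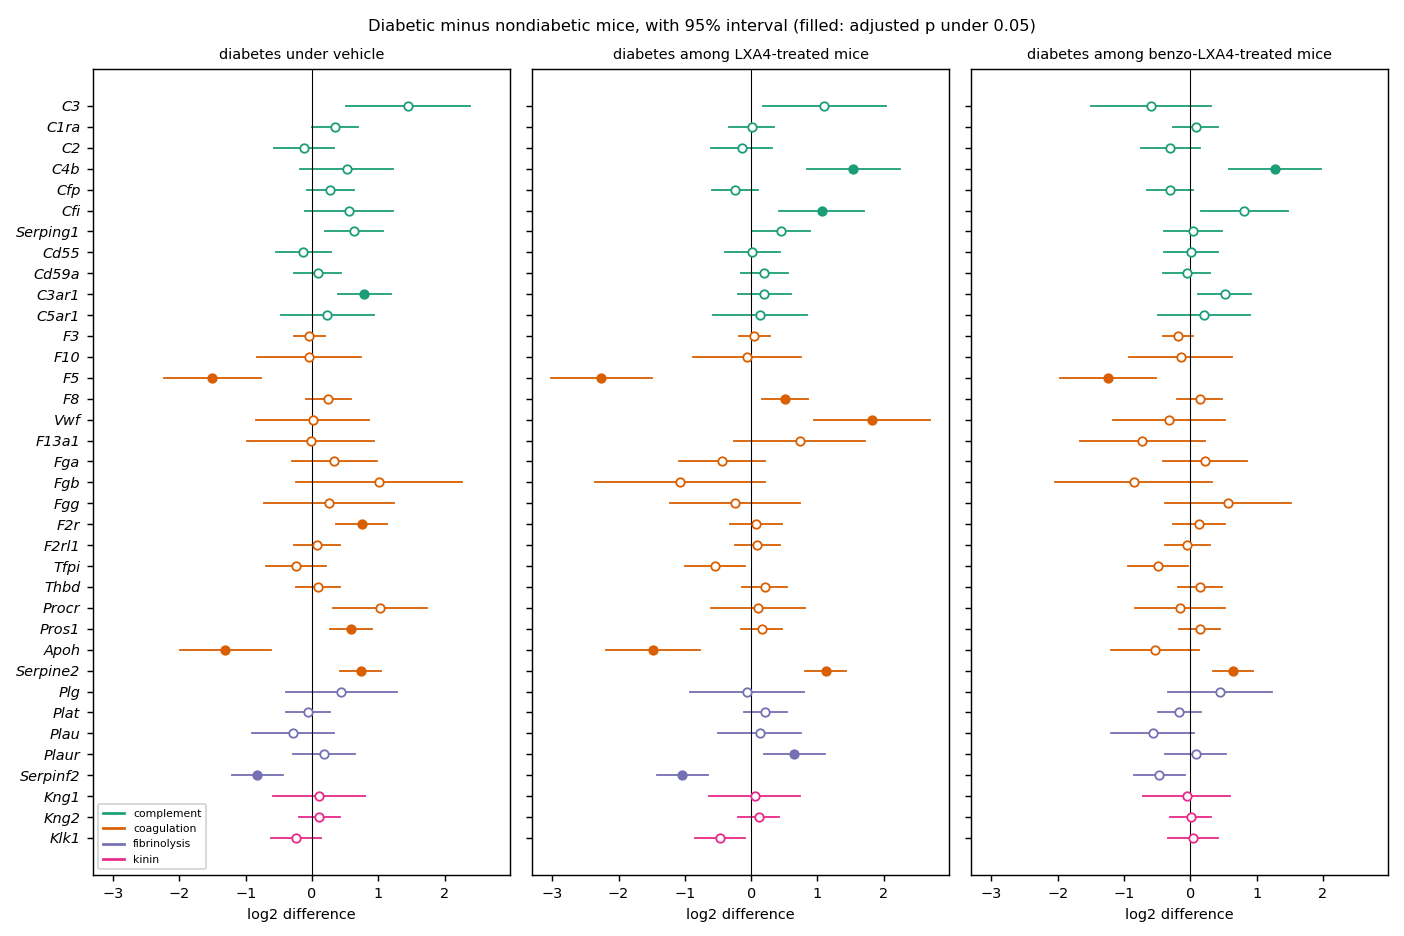
Log2 difference between diabetic and nondiabetic mice for the 36 genes, with 95% intervals, in the vehicle, LXA4 and benzo-LXA4 arms (6 against 6 libraries each), coloured by system. Filled points passed an adjusted p of 0.05, which 7, 9 and 3 genes did. F5 and Serpine2 are filled in all 3 panels, at -1.50, -2.26 and -1.24 for F5 and 0.73, 1.12 and 0.64 for Serpine2.

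The diabetic and nondiabetic mice were also compared within each compound. These 2 comparisons use other libraries than the vehicle one. Among LXA4-treated mice 9 of the 36 genes were called, against 27.7% of all genes, so the share of members called (25.0%) lay near that of all genes. Higher calls made up 15.4% of all genes and lower calls 12.3%. The 6 that rose were C4b, Cfi, F8, Plaur, Serpine2 and Vwf, and the 3 that fell were again F5, Apoh and Serpinf2. Among benzo-LXA4-treated mice 3 were called, against 4.06% of all genes: C4b and Serpine2 rose (2.81% of all genes) and F5 fell (1.25%). The groups did not overlap in 5 members among LXA4-treated mice (F5, Vwf, Apoh, Serpine2 and Serpinf2; 12.1% of all genes) and in 2 among benzo-LXA4-treated mice (C4b and Serpine2; 5.81%).

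F5 fell in the LXA4 arm from 14.0 to 21.1 CPM, median 15.8, in nondiabetic libraries to 1.95 to 6.07 CPM, median 2.83, in diabetic ones. That log2 difference was -2.26 ± 0.37 (SE, n = 6 against 6; adjusted p = 9.47e-05). In the benzo-LXA4 arm it went from 3.30 to 15.4 CPM, median 9.35, to 3.03 to 6.63 CPM, median 4.12. The benzo-LXA4 call (-1.24, adjusted p = 0.0419) was lost in 10 of the 12 fits that left out 1 library of those groups (adjusted p of 0.0502 to 0.109); it held without nondiabetic replicate 3 or diabetic replicate 4. Serpine2 ranged in the LXA4 arm from 7.59 to 10.0 CPM in nondiabetic and from 17.1 to 24.8 in diabetic libraries (log2 difference 1.12 ± 0.15, adjusted p = 6.29e-06). In the benzo-LXA4 arm it ranged from 9.27 to 12.8 and from 14.2 to 22.5 CPM (0.64 ± 0.15, adjusted p = 0.0102). Neither pair of ranges overlapped.

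Serpinf2 held 221 to 299 CPM in nondiabetic and 103 to 172 CPM in diabetic LXA4-treated libraries, a difference of -1.04 (adjusted p = 0.000327). With benzo-LXA4 the difference was -0.47 (adjusted p = 0.178). Apoh went from 4.36 to 8.33 CPM to 1.38 to 3.21 CPM in the LXA4 arm, a difference of -1.485 (adjusted p = 0.00259), and differed by -0.54 with benzo-LXA4 (adjusted p = 0.423). Whether these effects differ between arms was tested as an interaction of each compound with diabetes against the vehicle arm, and none of the 36 genes passed it. Leaving out the 2 libraries rich in structural RNA raised the number of members called to 13 in the LXA4 arm and 5 in the benzo-LXA4 arm, where Plau and Tfpi were added (Tfpi -0.49, adjusted p = 0.0215). In the LXA4 arm F8 was lost and C3 (1.21, adjusted p = 0.0467), Pros1 (0.29, adjusted p = 0.0477), Serping1 (0.58, adjusted p = 0.0204), Tfpi (-0.39, adjusted p = 0.0360) and Plau were added. For Plau the direction in the LXA4 arm depended on diabetic LXA4 replicate 6, which held 1204 CPM. With that library kept, the mean was higher in diabetic than in nondiabetic libraries (411 against 375 CPM), but the median was lower (273 against 382.5 CPM).

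C4b was the complement gene with the largest called rise in the treated arms. It ranged from 4.84 to 6.34 CPM, median 5.60, in nondiabetic and from 4.01 to 32.65 CPM, median 15.3, in diabetic LXA4-treated libraries (log2 difference 1.54 ± 0.35, SE, n = 6 against 6; adjusted p = 0.00180). Of the diabetic libraries 5 lay above every nondiabetic one and replicate 6 lay below them all. In the benzo-LXA4 arm it ranged from 3.46 to 8.37 and from 9.10 to 38.05 CPM, with 1 diabetic library, replicate 5, far above the others (log2 difference 1.28, adjusted p = 0.0259). Without that library the difference was 0.78 with an adjusted p of 0.194, and the call was also lost without nondiabetic benzo-LXA4 replicate 2 or 4 (adjusted p of 0.0612 and 0.0705). Cfi ranged in the LXA4 arm from 1.89 to 2.67 CPM in nondiabetic and from 1.18 to 9.15 in diabetic libraries (1.06, adjusted p = 0.0133). That call was lost without diabetic LXA4 replicate 3 or 4 (adjusted p of 0.0519 and 0.0695). C4b shares sequence with C4a, as given above.

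Vwf, the platelet adhesive that carries factor VIII, ranged from 1.24 to 4.36 CPM in nondiabetic and from 4.68 to 17.9 in diabetic LXA4-treated libraries, with no overlap (log2 difference 1.82 ± 0.43, adjusted p = 0.00280). Its nondiabetic LXA4 libraries, median 2.09 CPM, were the lowest of the 6 groups by median, and the other 5 group medians lay between 3.95 and 7.88 CPM. The interaction of LXA4 with diabetes for Vwf was 1.81 (95% interval 0.59 to 3.04), with an adjusted p of 0.160. Of the 10 endothelial markers 0 passed the threshold in this arm, and their sum was 539 to 563 CPM in nondiabetic and 485 to 584 CPM in diabetic libraries. F8 held 102.5 CPM in diabetic LXA4 replicate 6, 1 of the libraries rich in structural RNA, and at most 44.75 CPM in the others of its group. It differed by 0.51 (adjusted p = 0.0232), by 0.18 (adjusted p = 0.0840) without the libraries rich in structural RNA and by 0.195 (adjusted p = 0.122) without that replicate alone. Its call was also lost without nondiabetic LXA4 replicate 3 (adjusted p = 0.0578). Plaur ranged from 2.03 to 3.35 CPM in nondiabetic and from 2.87 to 6.39 in diabetic LXA4-treated libraries and differed by 0.65 (adjusted p = 0.0318), which was lost without any of 5 single libraries (adjusted p up to 0.137): diabetic LXA4 replicate 5 or 6 or nondiabetic LXA4 replicate 1, 5 or 6.

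Over all 3 arms together, 18 diabetic against 18 nondiabetic libraries, 13 of the 36 genes were called, a share of 36.1% against 35.4% of all genes. This comparison contains the 3 above and is not independent of them. Higher calls made up 18.8% of all genes and lower calls 16.6%. Of the 11 complement genes 5 rose (C3, C3ar1, C4b, Cfi and Serping1) and 0 fell. Of the 17 coagulation genes 4 rose (F2r, F8, Pros1 and Serpine2) and 3 fell (F5, Apoh and Tfpi). Of the 5 fibrinolysis genes Serpinf2 fell, and of the 3 kinin genes 0 were called. Every one of the 18 diabetic libraries lay below the nondiabetic median in F5 and Serpinf2 and above it in Serpine2. In C3, C4b and Pros1 17 of 18 lay above it, and in Apoh 17 of 18 lay below.

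Pooled log2 differences were -1.67 in F5 (adjusted p = 4.10e-07), -1.11 in Apoh (5.41e-05), -0.78 in Serpinf2 (2.59e-06) and 0.83 in Serpine2 (1.07e-08). For the complement genes they were 1.11 in C4b (6.48e-05), 0.81 in Cfi (0.00104), 0.50 in C3ar1 (0.000958) and 0.37 in Serping1 (0.0190). The other rises were smaller, at 0.32 in F2r (0.0243), 0.30 in F8 (0.0157) and 0.29 in Pros1 (0.0107). Without the libraries rich in structural RNA the F8 difference was 0.16 (adjusted p = 0.00577), and Plaur (0.33, adjusted p = 0.0273), Plau and Klk1 were called as well. With all libraries kept, the diabetic median was the lower one in Plau (286 against 403 CPM) and in Klk1 (457 against 512 CPM). Tfpi, with a median of 6.38 CPM in nondiabetic and 4.83 in diabetic libraries, fell by 0.43 on the log2 scale (adjusted p = 0.00989). The C3 call (0.65, adjusted p = 0.0497) lay at the threshold and was lost in 25 of the 36 fits that left out 1 library (adjusted p of 0.0508 to 0.0908). It held only without nondiabetic vehicle replicate 4, nondiabetic LXA4 replicate 4, nondiabetic benzo-LXA4 replicate 1 or 3, diabetic vehicle replicate 1, 2 or 6, diabetic LXA4 replicate 1 or 6, or diabetic benzo-LXA4 replicate 3 or 6. Within the arms C3 differed by 1.44 with vehicle, 1.10 with LXA4 (adjusted p = 0.0677) and -0.59 with benzo-LXA4 (adjusted p = 0.548). In the nondiabetic benzo-LXA4 group, replicates 1 and 3 held 78.2 and 62.4 CPM and the other 4 held 5.57 to 13.7. The interaction of benzo-LXA4 with diabetes for C3 was -2.03 (95% interval -3.34 to -0.73), with an adjusted p of 0.888.

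Markers of several cell types moved in the same comparisons. Of 12 macrophage markers 1, Ms4a7, rose under vehicle and 8 rose over all arms, and their summed level was 88.0 to 127 CPM in nondiabetic and 105 to 165 CPM in diabetic vehicle libraries, beside the rise in C3ar1, a receptor that macrophages carry. Of 12 proximal tubule markers 3 fell under vehicle and 8 over all arms, with sums of 15056 to 21884 CPM and 11940 to 17412 CPM in the vehicle groups, beside the falls in F5, Apoh and Serpinf2. Of 11 measured genes known to be higher in male than in female kidney, 2 fell under vehicle and 9 over all arms, with sums of 7937 to 13488 CPM in nondiabetic and 3181 to 10774 CPM in diabetic vehicle libraries. Of 7 smooth muscle and pericyte markers 1 rose under vehicle and 5 over all arms, with sums of 108 to 156 CPM and 148 to 206 CPM, beside the rises in F2r and Serpine2. Of 23 measured interferon-response genes 2 rose under vehicle and 13 over all arms, with sums of 195 to 276 CPM in nondiabetic and 243 to 363 CPM in diabetic vehicle libraries. C4b, Cfi and Serping1 also rose over all arms, but none of them passed under vehicle with all libraries kept. Of 10 endothelial markers 0 were called under vehicle, 1 rose and 1 fell over all arms, and 1 rose in the benzo-LXA4 arm. Of 5 podocyte markers 0 were called under vehicle and 3 rose over all arms. Of 3 measured T and B cell markers 1 rose under vehicle and 1 over all arms. Their sums were 1.89 to 2.90 CPM in nondiabetic and 2.97 to 4.65 CPM in diabetic vehicle libraries. Of 3 measured platelet and megakaryocyte markers 0 were called under vehicle, and 1 rose and 1 fell over all arms. Of 6 neutrophil markers 0 were measured. Of 5 erythroid markers 0 were called under vehicle and 4 fell over all arms. In the benzo-LXA4 arm all 5 erythroid markers fell, with sums of 179 to 365 CPM in nondiabetic and 86.8 to 242 CPM in diabetic libraries. Of 9 measured liver markers 0 were called under vehicle and 2, Cyp2e1 and Ttr, fell over all arms. Their summed level was 1066 to 1519 CPM in nondiabetic and 629 to 1226 CPM in diabetic vehicle libraries. Alb was a small part of that sum, with 3.05 to 10.8 CPM in nondiabetic and 4.46 to 10.99 CPM in diabetic vehicle libraries. The part of any cell type in the results was not tested.

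Each compound was set against vehicle, once among diabetic and once among nondiabetic mice. None of the 36 genes passed an adjusted p of 0.05 in edgeR for either compound in either state, nor by DESeq2 or by voom, nor in the interaction of either compound with diabetes. In diabetic mice the share of all genes called was 0.356% for LXA4 and 0% for benzo-LXA4, and in nondiabetic mice it was 0% for both. The interaction called 0.248% of all genes for LXA4 and 0% for benzo-LXA4. At an unadjusted p under 0.05 the 36 genes gave 4 with LXA4 and 2 with benzo-LXA4 in diabetic mice, where all genes gave 15.7% and 5.67%. In nondiabetic mice they gave 2 and 4, where all genes gave 6.15% and 2.87%. For the interactions they gave 6 and 5, beside 16.5% and 4.28% of all genes. Comparisons within a disease state share the vehicle libraries, and the doses of the compounds differ, so the values below stand side by side without a comparison of the compounds.

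The C4b values in diabetic mice were the largest positive ones. C4b ranged from 6.03 to 9.76 CPM, median 8.496, with vehicle. Its median was 15.3 CPM with LXA4 and 11.2 CPM with benzo-LXA4. The differences from vehicle were 0.99 (95% interval 0.30 to 1.68, adjusted p = 0.185) and 0.91 (0.22 to 1.60, adjusted p = 0.635). Of the benzo-LXA4 libraries 5 lay above every vehicle library, and of the LXA4 libraries 4 lay above and 1 below all of them. F2r had differences of -0.51 with LXA4 (-0.90 to -0.13, adjusted p = 0.208) and -0.43 with benzo-LXA4 (-0.82 to -0.05, adjusted p = 0.787). C3ar1 had -0.55 with LXA4 (-0.95 to -0.15, adjusted p = 0.193) and -0.31 with benzo-LXA4 (adjusted p of 1.00), and Cfi had 0.77 (adjusted p = 0.244) and 0.30 (adjusted p of 1.00). Since none passed, these are values and not shown changes.

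Plau separated the groups in 1 case. With benzo-LXA4 its diabetic libraries held 218 to 290 CPM, all below the 317 to 469 CPM of the diabetic vehicle libraries, where 1.23% of all genes did not overlap in that comparison. The log2 difference was -0.60 (95% interval -1.23 to 0.02) with an adjusted p of 0.899. In nondiabetic mice, Cfp held 3.16 to 3.59 CPM with LXA4, all above the 1.92 to 3.09 CPM of vehicle, where 0.445% of all genes did not overlap. Its log2 difference was 0.37 (adjusted p = 0.812). With LXA4 in diabetic mice and benzo-LXA4 in nondiabetic mice 0 members were without overlap, against 0.82% and 0.108% of all genes. C3 had the largest difference of any member for a compound, 1.64 with benzo-LXA4 in nondiabetic mice (0.70 to 2.58, adjusted p = 0.649), where the 2 libraries named above were the high ones. Fgb came next, at 1.34 in that comparison and -1.11 with LXA4 in diabetic mice (adjusted p of 1.00 and 0.386), from levels mostly under 1 CPM.

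**Figure D4:**
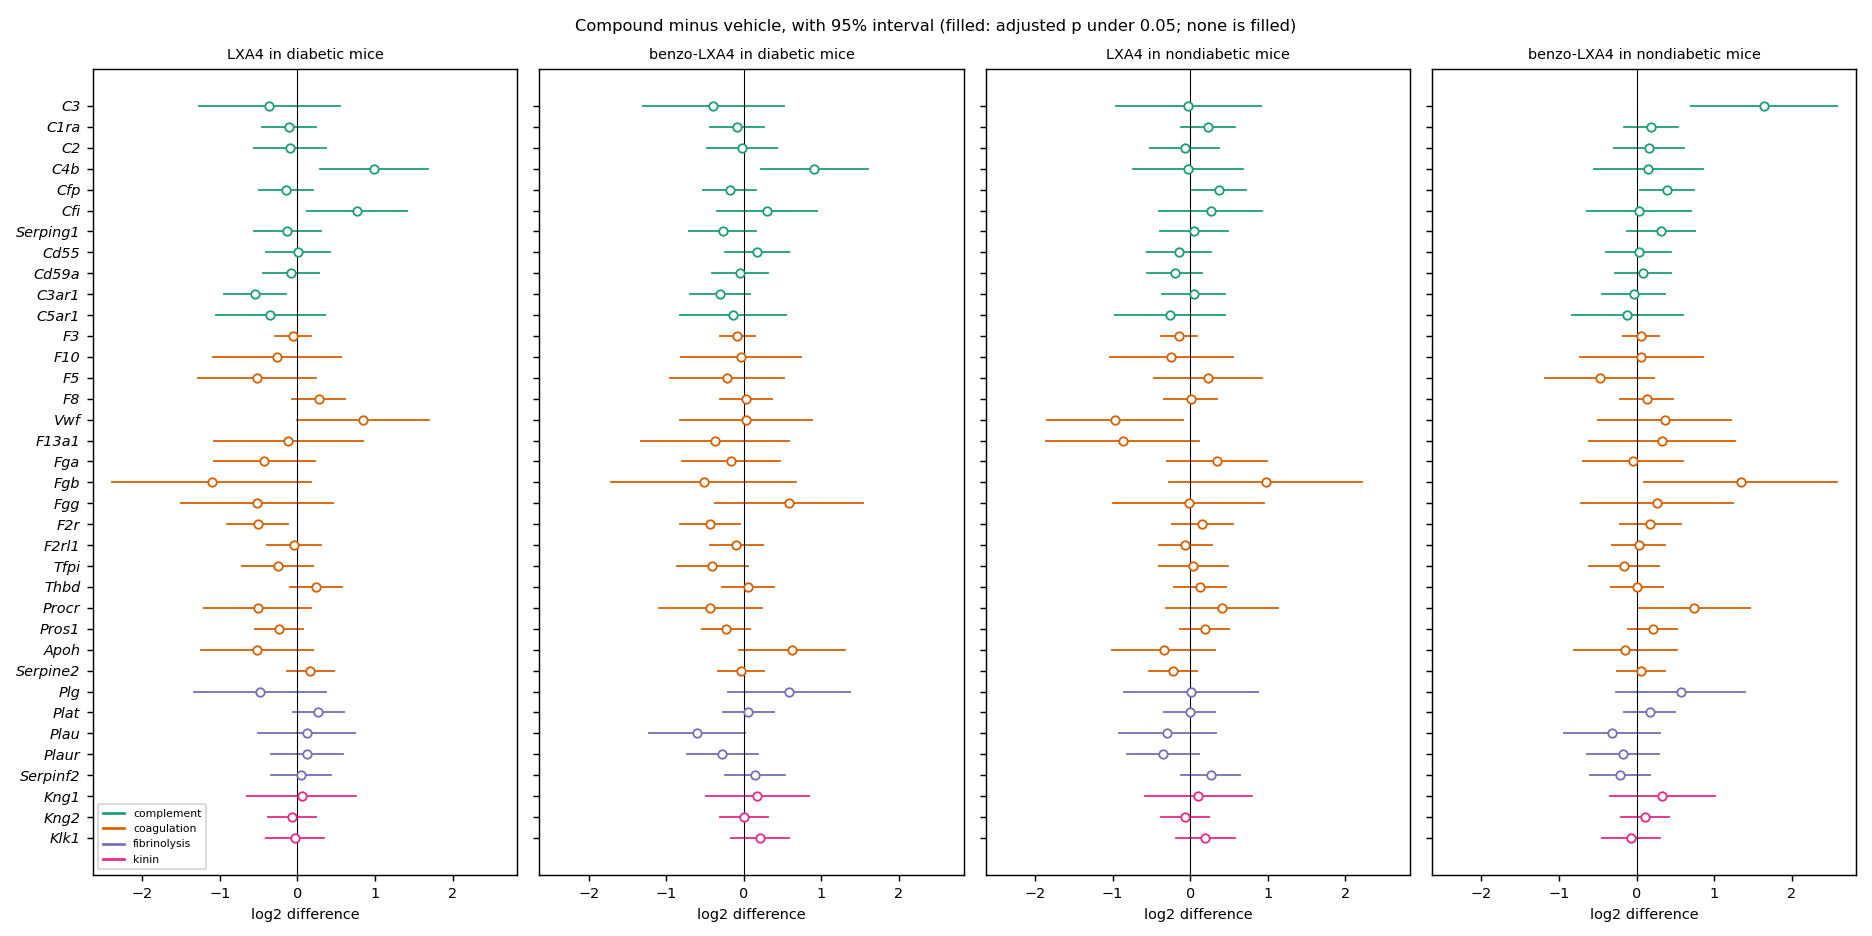
Log2 difference between compound and vehicle for the 36 genes, with 95% intervals, for LXA4 (5 µg/kg) and benzo-LXA4 (1.7 µg/kg) in diabetic and in nondiabetic mice (6 against 6 libraries in each panel), coloured by system. No point is filled, since 0 genes passed an adjusted p of 0.05. C3 in nondiabetic mice given benzo-LXA4 stands farthest to the right, at 1.64.

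The fibrinogen chains are adjacent genes on chromosome 3, between 83007724 and 83049863, and their transcripts were compared within groups. After each group's mean was removed from log2(CPM + 0.1), Fga and Fgb correlated over the 36 libraries with Pearson's r = 0.61 (adjusted permutation p = 0.00552 over 8 pairs) and Spearman's rho = 0.53 (adjusted p = 0.00996). Without the 2 libraries farthest from the median of Fga, r was 0.47 (adjusted permutation p = 0.149), so the call rests on those libraries, while without the 2 libraries rich in structural RNA r was 0.61 (adjusted permutation p = 0.00308). Fga and Fgg gave r = 0.33 (adjusted permutation p = 0.141) and rho = 0.55 (adjusted p = 0.00996). Without the 2 libraries rich in structural RNA, which takes out a library with 0 Fgg counts, they gave r = 0.82 (adjusted permutation p = 0.00032). Fgb and Fgg gave r = 0.27 (adjusted permutation p = 0.229) and rho = 0.43 (adjusted permutation p = 0.0246) over all 36 and r = 0.60 (adjusted permutation p = 0.00397) without those libraries. Without the 2 libraries farthest from the median of the first gene, the pairs Fga-Fgg and Fgb-Fgg gave r = 0.05 and r = 0.08 (adjusted permutation p = 0.798 in each).

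Diabetic benzo-LXA4 replicate 5 held the most Fga and Fgg of all libraries, 35.8 and 26.7 CPM, against at most 10.04 and 4.86 CPM in the other 5 of its group. It was also the highest of its group in Fgb (2.21 CPM), C4b (38.05 CPM) and Cfi (6.935 CPM). The count of 0 for Fgg in diabetic LXA4 replicate 6 allows up to 0.708 CPM at that depth, by counting error alone. The same holds for C5ar1, F13a1 and Plg there, and a count of 0 for F10 in nondiabetic vehicle replicate 3 allows up to 0.343 CPM. Of the other 5 pairs tested, which were Plau with Plaur, C3 with C3ar1, Kng1 with Kng2, F3 with Tfpi and C2 with C4b, Pearson's r passed in 0, with adjusted permutation p-values from 0.0554 (Plau and Plaur, r = 0.44) to 0.570. Spearman's rho passed for Plau with Plaur (0.41, adjusted permutation p = 0.0362) and C3 with C3ar1 (0.46, adjusted permutation p = 0.0246), and missed the threshold in both without the 2 farthest libraries (adjusted permutation p of 0.129 in each).

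**Figure D5:**
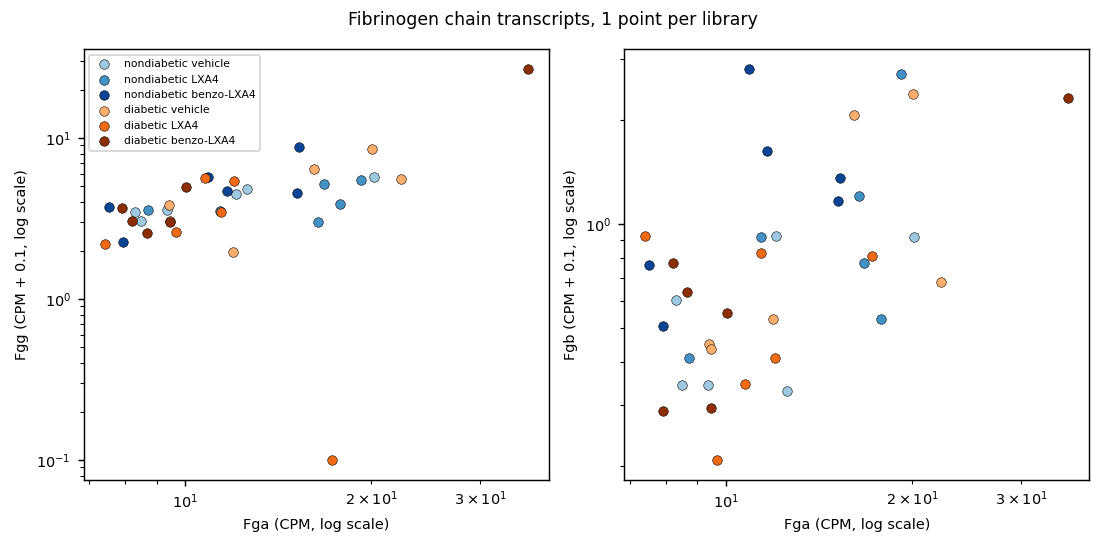
CPM of Fgg (left) and Fgb (right), each plus 0.1, against CPM of Fga, on log axes, 1 point per library, coloured by group. Diabetic benzo-LXA4 replicate 5 is the point at 35.8 CPM of Fga, and the lowest point in the left panel is diabetic LXA4 replicate 6 with 0 Fgg counts.

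Other genes of these pathways were read from a list of 80, of which 54 were measured. Under vehicle 4 rose and 3 fell, where 3.44% of all genes rose and 2.16% fell. Cpb2, the carboxypeptidase that protects fibrin from lysis, ranged from 0 to 0.608 CPM in nondiabetic and from 0.787 to 2.55 CPM in diabetic vehicle libraries, with no overlap (log2 difference 2.09, adjusted p = 0.0159). Masp1, a protease of the lectin pathway, rose by 1.46, Bdkrb2, the bradykinin B2 receptor, by 1.198 and C1s1, a protease of the C1 complex, by 0.70 (adjusted p of 0.0183, 0.00446 and 0.0192). A2m, a broad protease inhibitor, fell by 2.15 on the log2 scale (adjusted p = 0.0108), from a median of 0.714 to 0.123 CPM. Ggcx, the carboxylase of the vitamin K-dependent clotting factors, fell by 0.22 (adjusted p = 0.0395). Lman1, which carries factors V and VIII through the secretory pathway, fell by 0.20 (adjusted p = 0.0486).

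Over all arms 17 of the 54 rose and 12 fell, where 18.8% of all genes rose and 16.6% fell. Those that rose included the 3 chains of C1q (C1qa 0.38, C1qb 0.38 and C1qc 0.33 on the log2 scale), the terminal components C7 (0.75) and C9 (0.59), the complement inhibitor Clu (0.42) and Serpina10, which inhibits activated factor X (1.125). The others that rose were Cpb2 (1.75), Masp1 (1.17), Bdkrb2 (1.144), Klk1b3 (0.80), Lrp1 (0.31), Colec12 (0.25), Cd93 (0.22), Cd46 (0.21), Itgb2 (0.21) and Vkorc1l1 (0.09). Those that fell included Hrg, a histidine-rich plasma glycoprotein (-0.80), the kinin-degrading enzyme Ace (-0.65), Masp2 (-0.64), Mcfd2, the partner of Lman1 (-0.30), Proc, protein C (-0.28), and F13b, the carrier subunit of factor XIII (-0.27). A2m (-1.94), C8g (-0.42), C1rl (-0.36), Ggcx (-0.21), Lman1 (-0.20) and Cr1l (-0.15) also fell. C1s1, called under vehicle, missed the threshold over all arms (0.25, adjusted p = 0.0652 in edgeR). Group means were low in Klk1b3 (0.21 to 0.50 CPM), C9 (0.34 to 0.65), Masp2 (0.25 to 0.57) and A2m (0.14 to 0.77). Among LXA4-treated mice 6 of the 54 rose and 13 fell, where 15.4% of all genes rose and 12.3% fell. Among benzo-LXA4-treated mice 2 rose and 2 fell, where 2.81% of all genes rose and 1.25% fell. C1qa, C1qb and C1qc are also 3 of the 12 macrophage markers given above, and 3 of the 8 of those that rose over all arms. With either compound in either disease state, 0 of the 54 passed.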

How the data were processed

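Total RNA of kidney cortex, 200 ng a sample, was freed of ribosomal RNA and sequenced as strand-marked libraries, per the labels' protocols. The authors deposited raw counts, 1 column for each of 36 libraries, with 0 columns unmatched. The submitters' processing notes name bcl2fastq 2.17.1.14, STAR, featureCounts and GRCm38. Other versions, the annotation and the strand setting: not given in the sources used here. Over all libraries, the lowest gene total was 370 counts. Coordinates, exon lengths and shared sequence come from GENCODE M21, which held 15697 of the 15730 genes.

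Counts of 15726 genes, after edgeR's low-count filter, were scaled by the trimmed mean of M-values and fitted with edgeR 4.0.16 (R 4.3.3; glmQLFit and glmQLFTest, 1 model of 6 groups). P-values were adjusted by Benjamini-Hochberg over all genes, with a threshold of 0.05. The 10 contrasts are those of the report. The replicate numbers were not used as pairs. Alternatives were DESeq2 1.42.0, its size factors in the edgeR fit, voom with quality weights (limma 3.58.1), no filter, a mean of at least 5 CPM, only the 2 groups compared, leaving out each library, and leaving out the 2 libraries with over 15% structural RNA; the last was added for the correlations after seeing the data. Correlations used 100000 permutations. In simulated counts for diabetes under vehicle over 15729 genes, 84% of genes changed by 1 log2 unit and 99% of those changed by 2 were called, and 3 unchanged genes were called. Those counts were drawn separately for each gene, without libraries rich in structural RNA or variation shared between genes. The shares called may therefore be higher than in the real libraries. The depth of 8896193 to 43305005 counts limits genes under 1 CPM most.

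The members and lists were chosen with earlier results of these data known. Values are given for members called in any of the 10 contrasts, for the 4 highest and 4 lowest of the rest under vehicle, and for the fibrinogen chains, C3 and Plau. The other pathway genes and the examples from compound contrasts were named for their calls, low unadjusted p or separation of groups.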

Additional observations from a re-analysis of the deposited data

Results flagged for a closer look

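Within each group of 6 libraries, the highest or lowest library of a gene was compared with its nearest neighbour by Dixon's test. Of 216 combinations of gene and group, 28 had a library set apart, where chance gives about 1 in 20 groups, or 5%, for normally distributed values. The test was run on CPM without logs, which need not be so distributed, so the 28 cannot be judged against that rate. Libraries are related across genes, so these are not 28 separate events.

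Diabetic LXA4 replicate 6, the shallowest library and the richest in structural RNA, gave 6: it was low in Cd55 (1.889 CPM, next 10.56), Tfpi (0.2361, next 4.296) and Pros1 (9.682, next 25.35), and high in F8 (102.5, next 44.75), Serpine2 (24.79, next 19.95) and Plau (1204, next 327.6). In the same group, C2 was high in replicate 2 (1.198 CPM) and Vwf in replicate 5 (17.93).

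Diabetic benzo-LXA4 replicate 5 was high in Fga (35.76 CPM, next 10.04), Fgb (2.212, next 0.6744), Fgg (26.73, next 4.856), C4b (38.05, next 12.94) and Cfi (6.935, next 3.065). In that group, F10 was high in replicate 4 (0.9876 CPM) and Serpine2 in replicate 6 (22.54).

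In the diabetic vehicle group, F10 was low in replicate 2 (0.05593 CPM). Among nondiabetic vehicle libraries, replicate 3, the other library rich in structural RNA, was high in Plau (749 CPM) and at 0 in F10, replicate 5 was high in Fga (20.17) and F2r (41.79), and replicate 6 in Kng1 (0.7158). Nondiabetic LXA4 replicate 4 was high in Fgb (2.613 CPM), Tfpi (10.57) and Pros1 (30.07). In nondiabetic benzo-LXA4 libraries, replicate 1 was high in Cfp (4.908 CPM) and F13a1 (3.465), replicate 3 in Apoh (19.09) and replicate 6 in Plg (1.751). What sets these libraries apart was not tested.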

How the results depend on the processing

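No called result reversed its direction in the settings run. With vehicle, 4 members were called for diabetes when only those groups were fitted (7 otherwise), and leaving out 1 library gave 4 to 10. The fit of only those groups lost C3ar1, F5, Serpine2 and Serpinf2, so its 4 calls are not all among the 7. Among LXA4-treated mice voom called 15 (9 otherwise), and leaving out 1 library gave 8 to 10. Among benzo-LXA4-treated mice, where 3 were called, voom called 6, and 5 were called both without the libraries rich in structural RNA and with only those groups; leaving out 1 library gave 1 to 3. Over all arms, where 13 were called, leaving out 1 library gave 12 to 14. Compound contrasts and interactions called 0 members in every setting. The correlation of Fga with Fgb fell to 0.47 without the 2 farthest libraries, and without the libraries rich in structural RNA, a setting chosen after seeing the data, Fga with Fgg gave 0.82 and Fgb with Fgg 0.60. Causes were not tested, but fewer samples stand behind the smaller fits.

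Over all genes, diabetes under vehicle called 881 genes, against 1329 by DESeq2, 2221 by voom, 443 with a mean of at least 5 CPM, 342 with only those groups, 1399 without the libraries rich in structural RNA, and 441 to 1338 leaving out 1 library. Among LXA4-treated mice 4353 became 6954 by voom and 2338 with only those groups. Among benzo-LXA4-treated mice 638 became 1066, 2568, 305, 1875 and 1906 in the order of the first list. LXA4 in diabetic mice called 56 genes, against 231 by DESeq2, 172 by voom, 93 without the libraries rich in structural RNA, 1 with only those groups and 0 to 88 leaving out 1 library; its interaction with diabetes called 39, against 266, 211, 129 and, with a mean of at least 5 CPM, 81. Benzo-LXA4 in diabetic mice called 0, against 52 by DESeq2, 105 by voom, 48 without those libraries and 3 with only those groups. In nondiabetic mice DESeq2 called 3 for LXA4 and 2 for benzo-LXA4, and voom 3 for LXA4.

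The replicate numbers showed no common pairing: over 90 pairs with the same number, the correlation of deviations ran from -0.417 to 0.465 with a median of -0.00349. It was over 0.1 in 29 pairs, and 5 of 36 libraries correlated best with their own number. The labels do not say whether the numbers mark pairs, and a weak pairing could go unseen in this check. With the replicate block, 7, 12, 9 and 2 members were called for diabetes with vehicle, over all arms, with LXA4 and with benzo-LXA4; C3 over all arms and F5 with benzo-LXA4 missed the threshold. The block gave 28 genes for LXA4 in diabetic mice and 9 for its interaction. Depth limits the members under 1 CPM.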
